A study of Capra hircus with 20 samples.

Results

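The genes described here are 10 genes of serine synthesis, mitochondrial one-carbon metabolism and the amino acid response driven by ATF4 in goat (pre)adipocytes: PHGDH, PSAT1, PSPH, SHMT2, MTHFD2, ASNS, CTH, CHAC1, TRIB3 and ATF4. They were found by their symbols among the 20587 genes of the mRNA table, and the FPKM (fragments per kilobase of transcript scaled by the mapped fragments of the library) of the transcripts of each symbol were summed. All 10 were present and reached an average of 1 FPKM across the 20 libraries, so all 10 passed the filter on low values that left 11432 genes for testing. The set was proposed with the stage differences of these libraries already known. The levels and differences of the 10 genes are therefore given as a description, without a test, whereas related genes from lists were tested in the fit over all 11432 genes.

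PHGDH, PSAT1 and PSPH catalyse the successive steps from a glycolytic intermediate to serine. SHMT2 and MTHFD2 work in the mitochondrion, where SHMT2 moves a one-carbon unit from serine onto folate and MTHFD2 oxidises it, a supply used for purine and thymidylate synthesis in growing cells. ATF4 is a transcription factor that is made when phosphorylation of the initiation factor eIF2 slows general translation, and the genes for serine synthesis, asparagine synthetase (ASNS), cystathionine gamma-lyase (CTH), the glutathione-degrading enzyme CHAC1 and the pseudokinase TRIB3 are among its known targets.

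The cells were primary cultures from 5 male Jianzhou Daer goats 7 days of age. Both tissues were taken from these goats, and the labels do not tie a library to a goat. Intramuscular preadipocytes (IMPA) from the longissimus dorsi and subcutaneous preadipocytes (SPA) from subcutaneous fat were taken without induction (day 0). Intramuscular adipocytes (IMA) and subcutaneous adipocytes (SA) were the corresponding cells after 3 days in a medium with oleic acid. Each group had 5 libraries, and values with ± are the mean and SD over these 5 libraries unless an SE is named. The study asked how lncRNAs and mRNAs change during differentiation in each depot, which is the comparison of IMA with IMPA and of SA with SPA. The comparisons of SPA with IMPA and of SA with IMA are of depots at a like stage. The 4 comparisons share groups and are not independent of one another.

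The mRNA FPKM of a library summed to between 373889 and 413880, with 15126 to 16961 genes above 0. FPKM does not hold the number of fragments behind each level, and no counts were used. In the study's own read statistics the mapped share of reads was higher in each IMPA library than in any library of the other groups, and so was the GC content. The mapped share was also lower in each SA library than in any library of the other groups. In comparisons with IMPA the part of both measures cannot be told apart from that of the group. The same holds for the mapped share in comparisons with SA, and neither was tested. Of 11 adipocyte markers in the table, 8 had a mean under 1 FPKM in IMPA, in IMA and in SPA and 6 in SA, among them ADIPOQ, PLIN1 and LEP in all 4 groups, while of the 4 that were tested PLIN2, the coat protein of lipid droplets, and CD36, a fatty acid transporter, rose in IMA and in SA (1.74 and 0.62, and 2.24 and 0.84, on the log2 scale), CEBPA, an adipogenic transcription factor, fell in both (-0.68 and -0.31), and CIDEC, a lipid droplet protein, had -0.025 and -0.072 (adjusted p = 0.84 and 0.47). The mean of CD36 went from 0.252 FPKM in IMPA to 4.91 in IMA. In the subcutaneous cells it went from 0.068 FPKM in SPA to 0.934 in SA and so stayed under 1 FPKM. The 11 skeletal muscle markers together had 3241 to 3717 FPKM in IMPA and 11222 to 11932 in IMA, against 6.64 to 22.4 in SPA and 7.42 to 8.93 in SA. Of those markers 9 rose in IMA against IMPA and 1 fell, MYOD1 (43.2 ± 1.84 to 26.1 ± 2.51 FPKM), beside 19.9% and 40.2% of all genes tested (limma, adjusted p under 0.05). All 11 were lower in SPA than in IMPA and in SA than in IMA, beside 42.3% and 29.0% of all genes tested. The intramuscular groups thus carried RNA of muscle genes that the labelled cell type does not name. The 9 preadipocyte and fibroblast markers summed to 4442 to 6986 FPKM in IMPA, 5927 to 6663 in IMA, 11197 to 11588 in SPA and 10238 to 10544 in SA, with DLK1 and CD34 under 1 FPKM on average in each group. The 4 endothelial markers summed to at most 0.933 FPKM and the 4 macrophage markers to at most 18.2 FPKM in any library. In such bulk samples fewer cells of a type and less RNA per cell cannot be told apart.

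In the intramuscular cells 6 of the 10 genes were lower in every IMA library than in every IMPA library, namely PHGDH, PSAT1, PSPH, SHMT2, MTHFD2 and CTH, and none was higher in every library. Among all genes tested, 29.2% were lower and 14.3% higher without overlap in this comparison. In the subcutaneous cells 9 of the 10 genes were higher in every SA library than in every SPA library, all but ATF4, where 19.8% of all genes tested were higher without overlap. The same 6 genes that were lower in IMA were thus higher in SA, a combination that 5.31% of the tested genes showed. As the set was chosen on these differences, the shares are printed for reference only. The median difference of the 10 genes on the log2(FPKM + 1) scale was -0.36 in IMA against IMPA, where that of all genes tested was -0.085, and 1.03 in SA against SPA, where that of all genes tested was -0.0091.

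**Figure D1:**
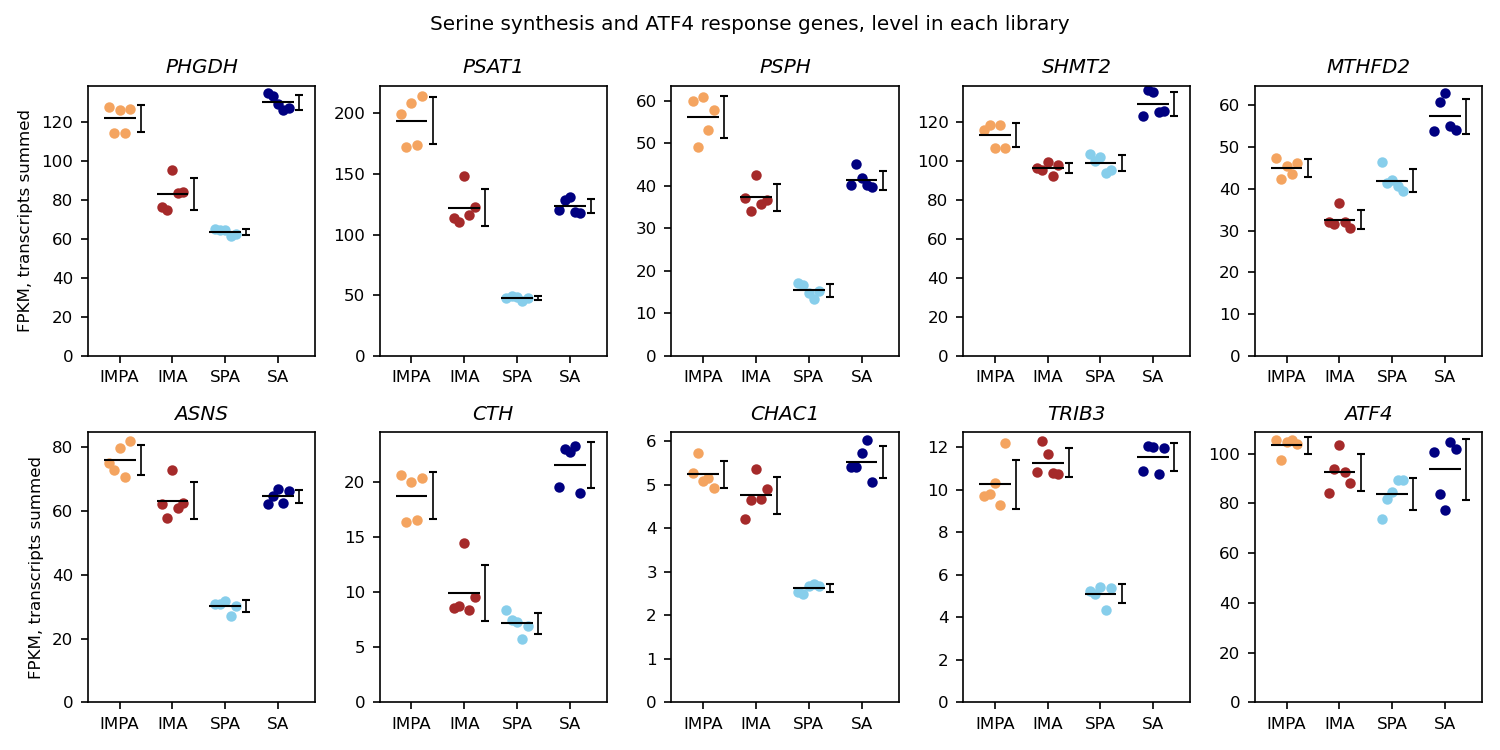
Level of each of the 10 genes in the 20 libraries, as FPKM summed over the transcripts of the gene (vertical axis, linear from 0, with its own scale per gene), for IMPA, IMA, SPA and SA. Points are libraries, horizontal lines are group means and the bars beside them are ± 1 SD over 5 libraries. SPA had the lowest mean for 8 of the genes, whereas SHMT2 and MTHFD2 were lowest in IMA.

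PHGDH, the dehydrogenase of the entry step of serine synthesis, had 128, 115, 126, 115 and 127 FPKM in IMPA 1 to 5 and 76.7, 75.1, 95.5, 84 and 84.5 FPKM in IMA 1 to 5. In SPA 1 to 5 it had 65.1, 64.9, 64.7, 61.8 and 62.5 FPKM, and in SA 1 to 5 135, 134, 129, 126 and 127 FPKM. The SPA libraries lay closely together and below all others, and the SA libraries lay at the height of IMPA. The means were 122 ± 6.85 FPKM in IMPA, 83.2 ± 8.09 in IMA, 63.8 ± 1.54 in SPA and 130.3 ± 3.79 in SA. In order of the means (SA, IMPA, IMA, SPA), SA and IMPA overlapped and the other neighbours did not. On the log2(FPKM + 1) scale the difference was -0.55 ± 0.071 (SE) in IMA against IMPA and 1.02 ± 0.024 in SA against SPA.

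PSAT1, the aminotransferase of the next step, showed the widest range over the groups among the serine synthesis genes. Its levels were 199, 173, 208, 174 and 214 FPKM in IMPA 1 to 5 and 113, 110.3, 149, 116 and 122 FPKM in IMA 1 to 5. They were 47.7, 49.8, 48.6, 45.5 and 47.9 FPKM in SPA 1 to 5 and 120.5, 129, 131, 119 and 118 FPKM in SA 1 to 5. IMPA was above every other group without overlap, SPA was below every other group without overlap, and SA and IMA overlapped. The mean was 194 ± 19.3 FPKM in IMPA and 47.9 ± 1.57 in SPA, a ratio of 4.05, and after induction it was 122 ± 15.5 in IMA and 123 ± 5.98 in SA, a ratio of SA to IMA of 1.01. The stage difference was -0.66 ± 0.10 (SE) on the log2(FPKM + 1) scale in the intramuscular cells and 1.35 ± 0.037 in the subcutaneous cells.

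PSPH, the phosphatase that releases serine, followed PSAT1 in its order of groups at a lower level. It had 60.0, 49.1, 60.8, 53.2 and 57.7 FPKM in IMPA 1 to 5 and 37.2, 34.2, 42.6, 35.7 and 36.7 in IMA 1 to 5. It had 17.1, 16.7, 14.9, 13.4 and 15.2 FPKM in SPA 1 to 5 and 40.1, 45.1, 41.8, 40.1 and 39.7 in SA 1 to 5. IMPA lay above SA and IMA, which overlapped, and SPA lay below all of them. The means of 56.2 ± 4.91, 37.3 ± 3.2, 15.5 ± 1.5 and 41.3 ± 2.22 FPKM in IMPA, IMA, SPA and SA gave differences of -0.58 ± 0.077 (SE) in the intramuscular and 1.37 ± 0.068 in the subcutaneous cells on the log2(FPKM + 1) scale.

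The ratios between the mRNA levels of the serine synthesis genes differed by depot. FPKM is scaled by transcript length, and no other difference between genes was corrected for here. The ratio of PSAT1 to PHGDH in a library was 1.51 to 1.68 in IMPA and 1.39 to 1.56 in IMA, but 0.733 to 0.766 in SPA and 0.892 to 1.01 in SA. The FPKM of PSAT1 was thus above that of PHGDH in each intramuscular library and below it in each SPA library, with SA at about equal values. The ratio of PSPH to PHGDH was 0.429 to 0.481 in IMPA and 0.425 to 0.485 in IMA against 0.217 to 0.263 in SPA and 0.297 to 0.337 in SA. Both ratios overlapped between IMPA and IMA but were higher in every SA library than in every SPA library. These ratios were looked at after the levels were known and were not tested.

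SHMT2, the mitochondrial serine hydroxymethyltransferase, had a flatter profile than the serine synthesis genes. It ranged from 106 to 118 FPKM in IMPA, 92.2 to 99 in IMA, 93.7 to 103 in SPA and 123 to 136 in SA. SA stood above IMPA and IMPA above SPA without overlap, and SPA and IMA overlapped. The means were 113 ± 6.12, 96.1 ± 2.57, 98.8 ± 4.21 and 129 ± 6.21 FPKM in that order of groups, with a difference of -0.23 ± 0.039 (SE) on the log2(FPKM + 1) scale in IMA against IMPA and 0.38 ± 0.041 in SA against SPA.

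The sum over transcripts hides an unequal split for SHMT2, and the direction of its intramuscular difference rests on that sum. The table lists 2 transcripts, and the lesser one (XM_013963930.2) had 54.9, 28.3, 40.4, 28.9 and 49 FPKM in IMPA 1 to 5 and 14.6, 4.91, 17.4, 1.35 and 1.51 FPKM in IMA 1 to 5. The main one (XM_005680306.3) had 60.8, 89.7, 65.8, 89.4 and 57.3 FPKM in IMPA 1 to 5 and 81.6, 90.4, 81.6, 90.9 and 96.1 FPKM in IMA 1 to 5. The lesser transcript thus held 24% to 47.4% of the FPKM of the gene in the IMPA libraries and 1.47% to 17.6% in the IMA libraries, without overlap, and 14.6% to 46% in SPA and 6.74% to 27.2% in SA, which overlapped. With the main transcript alone the difference in IMA against IMPA turned from -0.23 to 0.30 on the log2(FPKM + 1) scale. How fragments were shared between the transcripts was decided in the assembly of the deposited values and could not be checked here.

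MTHFD2, the mitochondrial methylenetetrahydrofolate dehydrogenase, had 47.4, 42.3, 45.6, 43.5 and 46.3 FPKM in IMPA 1 to 5 and 32.2, 31.6, 36.7, 32.2 and 30.7 in IMA 1 to 5. It had 46.4, 41.3, 42.1, 40.6 and 39.4 FPKM in SPA 1 to 5 and 53.9, 60.7, 63, 55 and 54.1 in SA 1 to 5. SA was the highest group and IMA the lowest, each without overlap with its neighbour, and the preadipocytes of both depots overlapped. MTHFD2 was the sole gene of the 10 for which SPA and IMPA overlapped. The means were 45 ± 2.09, 32.7 ± 2.35, 42 ± 2.69 and 57.3 ± 4.22 FPKM, and the stage differences on the log2(FPKM + 1) scale were -0.45 ± 0.053 (SE) in the intramuscular and 0.44 ± 0.061 in the subcutaneous cells.

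**Figure D2:**
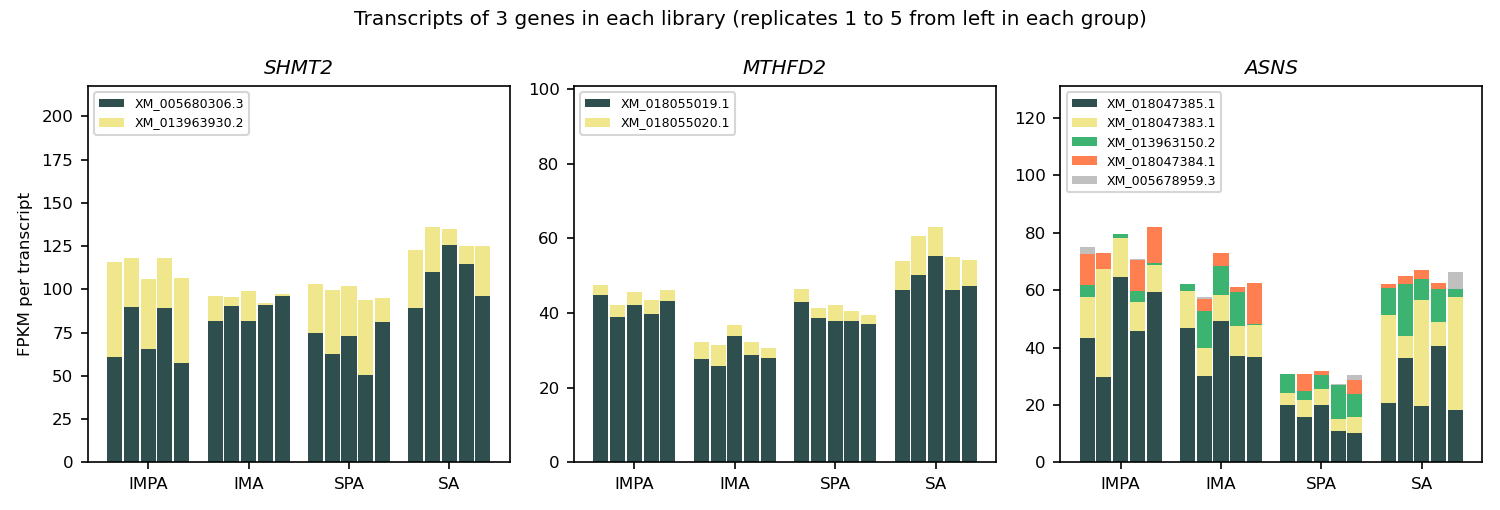
FPKM of each transcript (stacked bars, linear axis from 0) of SHMT2, MTHFD2 and ASNS in the 20 libraries, grouped as IMPA, IMA, SPA and SA with replicates 1 to 5 from left to right. The lesser SHMT2 transcript took 36% of the FPKM of the gene on average in IMPA and 8.19% in IMA, and the 5 ASNS transcripts changed their shares between libraries of a group while the sum stayed close.

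ASNS, which makes asparagine and is a standard readout of ATF4 activity, had 70.7 to 81.9 FPKM in IMPA, 57.7 to 73 in IMA, 27.2 to 31.8 in SPA and 62.2 to 66.9 in SA. Replicate 3 was the only IMA library inside the range of IMPA, and the SPA libraries were below all others. The means were 76 ± 4.69, 63.3 ± 5.72, 30.2 ± 1.78 and 64.6 ± 2.14 FPKM, and SA and IMA overlapped. On the log2(FPKM + 1) scale the difference was 1.07 ± 0.044 (SE) in SA against SPA and -0.26 ± 0.068 in IMA against IMPA. The table lists 5 ASNS transcripts, whose shares varied within groups: the highest one held 40.7% to 80.9% in IMPA and 27.6% to 64.9% in SA.

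CTH, which releases cysteine in the last step of transsulfuration, showed the largest stage differences of the 10 genes in both depots. It had 20.6, 16.4, 19.9, 16.5 and 20.4 FPKM in IMPA 1 to 5 and 8.55, 8.77, 14.4, 8.4 and 9.58 in IMA 1 to 5. It had 8.4, 7.49, 7.32, 5.79 and 6.9 FPKM in SPA 1 to 5 and 19.5, 23, 22.7, 23.3 and 19 in SA 1 to 5. IMA 3 stood apart from the other IMA libraries, and IMA and SPA overlapped, as did SA and IMPA. The mean of 21.5 ± 2.08 FPKM in SA was 3.00 times that of 7.18 ± 0.954 in SPA, and the mean of 9.95 ± 2.55 in IMA was 0.53 times that of 18.8 ± 2.12 in IMPA. The differences were -0.87 ± 0.15 (SE) and 1.46 ± 0.10 on the log2(FPKM + 1) scale, and without IMA 3 the intramuscular one was -1.0.

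CHAC1 and TRIB3, a pair of stress-response targets of ATF4, were, with CTH, the least abundant of the 10 genes, so the pseudocount of 1 FPKM makes their log2 differences smaller than the ratios of their FPKM. CHAC1 had 5.26, 5.73, 5.08, 5.16 and 4.93 FPKM in IMPA 1 to 5 and 4.2, 4.64, 5.36, 4.68 and 4.89 in IMA 1 to 5, and these groups overlapped. It had 2.54, 2.5, 2.68, 2.71 and 2.67 FPKM in SPA 1 to 5 and 5.41, 5.4, 5.72, 6.02 and 5.06 in SA 1 to 5, and these did not overlap. Ratios of means were 2.11 for SA to SPA and 0.909 for IMA to IMPA, and the log2(FPKM + 1) differences were 0.85 ± 0.04 (SE) and -0.12 ± 0.056.

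TRIB3 was the one gene of the 10 whose mean was higher in IMA than in IMPA. It had 9.71, 9.79, 10.3, 9.26 and 12.2 FPKM in IMPA 1 to 5 and 10.8, 12.3, 11.7, 10.8 and 10.7 in IMA 1 to 5. It had 5.25, 5.12, 5.44, 4.35 and 5.38 FPKM in SPA 1 to 5 and 10.9, 12.1, 12, 10.7 and 12 in SA 1 to 5. SA, IMA and IMPA overlapped each with its neighbour, and SPA lay below them all. The log2(FPKM + 1) difference was 0.13 ± 0.072 (SE) in IMA against IMPA and 1.04 ± 0.059 in SA against SPA, with a ratio of means of 2.26 in the latter.

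ATF4 mRNA itself lay at like levels in the 4 groups. It had 106, 97.3, 105, 106 and 104 FPKM in IMPA 1 to 5 and 84, 93.8, 104, 92.6 and 88.3 in IMA 1 to 5. It had 73.6, 81.6, 84.6, 89.2 and 89.5 FPKM in SPA 1 to 5 and 101, 84, 77.2, 105 and 102 in SA 1 to 5. Each group overlapped with its neighbour in the order of means (IMPA, SA, IMA, SPA), and only SPA and IMPA, at its ends, did not overlap. The SA libraries were spread, with replicates 2 and 3 below the others, although those replicates had the highest MTHFD2 and SHMT2 of their group. The stage differences were -0.16 ± 0.054 (SE) in the intramuscular and 0.15 ± 0.10 in the subcutaneous cells on the log2(FPKM + 1) scale. The ratio of ASNS to ATF4 mRNA in a library was 0.304 to 0.418 in SPA and 0.597 to 0.866 in SA without overlap, and 0.669 to 0.789 in IMPA and 0.616 to 0.741 in IMA, which overlapped.

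**Figure D3:**
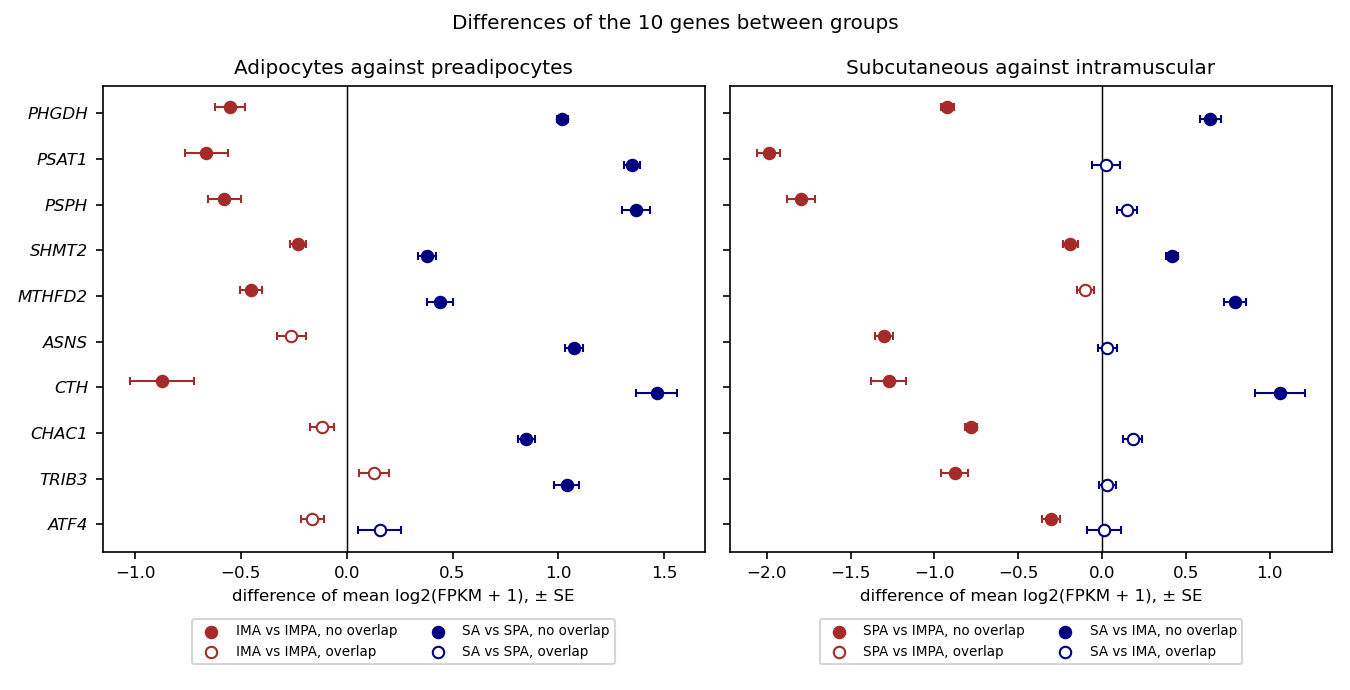
Differences of the group means of log2(FPKM + 1) of the 10 genes, with bars of ± 1 SE from 5 libraries per group, for adipocytes against preadipocytes (left) and for subcutaneous against intramuscular cells (right). Filled points are genes whose groups do not overlap. On the left 6 genes have filled points at both sides of 0, a combination that 5.31% of all genes tested showed. On the right 9 genes are lower in SPA than in IMPA and 4 higher in SA than in IMA without overlap. Of all genes tested, 35.9% and 34.7% were so.

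Between depots the order was clearest before induction. In SPA 9 of the 10 genes were below every IMPA library (all but MTHFD2), where 35.9% of all genes tested were lower without overlap. The differences on the log2(FPKM + 1) scale ranged from -1.99 ± 0.068 (SE) for PSAT1 and -1.80 ± 0.082 for PSPH to -0.19 ± 0.044 for SHMT2 and -0.10 ± 0.049 for MTHFD2. The median was -0.90, and that of all genes tested was -0.055. After induction 4 genes were higher in every SA library than in every IMA library, namely CTH (1.06 ± 0.15), MTHFD2 (0.79 ± 0.063), PHGDH (0.65 ± 0.064) and SHMT2 (0.42 ± 0.035), beside 34.7% of all genes tested. The other 6 overlapped, with differences between 0.013 ± 0.10 for ATF4 and 0.18 ± 0.059 for CHAC1, and with the highest transcript alone ASNS was at -0.60. Of these 6, PSAT1, ASNS, TRIB3 and ATF4 were below 0 with upper-quartile scaling (-0.052 to -0.030). The median over the 10 genes was 0.17 against 0.091 over all genes tested.

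Within the IMA group replicate 3 was the highest library for 9 of the 10 genes, and its summed FPKM of 631 over the genes compared with 524 to 548 in the other 4 IMA libraries. Its proliferation markers were also the highest of the group, at a mean log2(FPKM + 1) of 3.81 against 3.58 to 3.63, and the study's read statistics give it the highest mapped share of reads of the group. The part of either in its levels was not tested. Without IMA 3 the intramuscular differences were -0.60 for PHGDH, -0.74 for PSAT1, -0.63 for PSPH and -0.49 for MTHFD2. Replicate 4 was the lowest of the SPA libraries for 7 of the 10 genes, in a group whose summed levels lay between 384 and 404 FPKM.

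Most proliferation markers moved in the same direction as the serine synthesis genes in both stage comparisons. The 8 markers (MKI67, TOP2A, CDK1, CCNB1, RRM2, PCNA, MCM2 and BIRC5), genes of DNA replication and mitosis, summed to 140.6 to 166 FPKM in IMPA, 116 to 141 in IMA, 60.6 to 70.5 in SPA and 266 to 302 in SA. Of the 8, 6 fell in IMA against IMPA, where TOP2A had 0.047 and CDK1 0.087 (adjusted p = 0.6 and 0.21), and 8 rose in SA against SPA, with medians of -0.39 and 1.65 on the log2(FPKM + 1) scale, and 8 were lower in SPA than in IMPA and higher in SA than in IMA (limma, adjusted p under 0.05). Of all genes tested, 40.2% fell in IMA against IMPA and 26.1% rose in SA against SPA. Between depots 42.3% were lower in SPA than in IMPA and 43.4% higher in SA than in IMA. The part of the proliferation markers, and that of the skeletal muscle markers given above, in the differences of the 10 genes was not tested. The summed level of the 10 genes was 699 to 775 FPKM in IMPA against 669 to 693 in SA. The means of PSAT1, PSPH, ASNS and ATF4 were lower in SA, and those of PHGDH, SHMT2, MTHFD2, CTH, CHAC1 and TRIB3 were higher in SA.

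**Figure D4:**
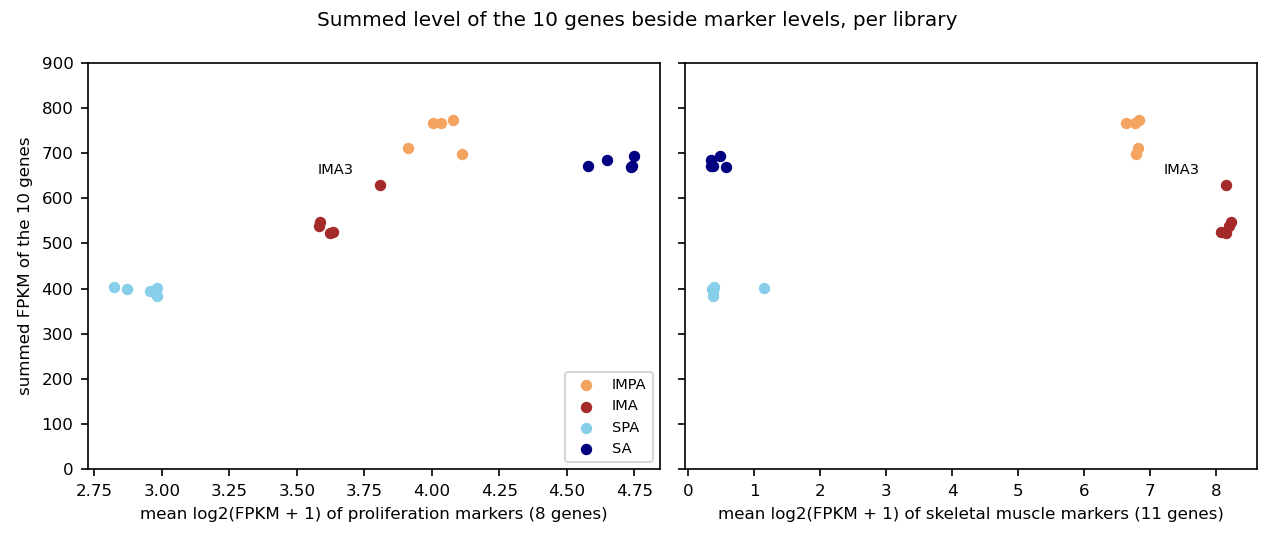
Summed FPKM of the 10 genes in each library (vertical axis, linear from 0) against the mean log2(FPKM + 1) of 8 proliferation markers (left) and of 11 skeletal muscle markers (right). Points are libraries coloured by group. SPA is lowest on both axes of the left panel, IMA 3 lies apart from the other IMA libraries towards IMPA, and SA and IMPA have like summed levels at muscle marker levels near 0.4 and near 7.

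Genes related to the 10 by function were then taken from 6 lists and tested with limma on log2(FPKM + 1), with Benjamini-Hochberg adjustment over all 11432 genes. Of these genes 60.1% were called in IMA against IMPA (19.9% higher, 40.2% lower), 52.1% in SA against SPA (26.1% higher, 26.0% lower) and 55.3% in the interaction of stage and depot (34.6% higher, 20.7% lower), the test of whether the change from preadipocyte to adipocyte differed between depots. Of 112 tested genes over the 6 lists, 21 rose and 57 fell in IMA against IMPA, 54 rose and 21 fell in SA against SPA, and 65 had a higher and 12 a lower change in the subcutaneous cells by the interaction. The lists were written with earlier results of these data known, so the counts are set beside those of all genes and were not tested as sets.

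Folate and one-carbon genes fell as a majority in the intramuscular cells. Of 17 tested, 2 rose and 12 fell in IMA against IMPA, with a median of -0.23, and 7 rose and 5 fell in SA against SPA, with a median of 0.049. TYMS, thymidylate synthase, went from 21.3 ± 1.11 FPKM in SPA to 66.9 ± 3.08 in SA (1.61 ± 0.043, adjusted p = 6.6e-11) and from 27.4 ± 3.08 in IMPA to 20.8 ± 2.62 in IMA (-0.38 ± 0.09, adjusted p = 0.0031). MTHFD1, the cytosolic counterpart of the mitochondrial folate enzymes, fell by 0.32 in IMA and rose by 0.67 in SA (adjusted p = 7.8e-05 and 5.4e-08). Both genes had a called interaction, of 1.99 and 0.99 on the log2 scale. MTR, methionine synthase, fell in both (-0.58 ± 0.068 SE in IMA and -0.12 ± 0.044 in SA), as did SLC25A32, the mitochondrial folate carrier (-0.16 and -0.38). The call of MTR in SA was lost when any 1 of SPA 1 to 4 or SA 1, 4 and 5 was left out (-0.13 to -0.098), and also with the highest transcript (-0.11) and in 1 fit of all 4 groups. GART, a purine synthesis enzyme, fell in IMA (-0.34 ± 0.045, adjusted p = 5.1e-05) and had 0.069 in SA (adjusted p = 0.29). TYMS is also a gene of DNA synthesis, and the proliferation markers given above moved in the same comparisons, with TOP2A and CDK1 not called in IMA. The part of proliferation in the change of TYMS was not tested.

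The other known targets of ATF4 moved in both directions. Of 30 tested, 9 rose and 12 fell in IMA against IMPA, with a median of -0.072, near the -0.085 of all genes, while 19 rose and 7 fell in SA against SPA, with a median of 0.30. SESN2, a stress-induced inhibitor of mTORC1 signalling, had 9.31 ± 0.772, 7.09 ± 0.78, 4.24 ± 0.309 and 10.0 ± 0.865 FPKM in IMPA, IMA, SPA and SA, with a fall in IMA (-0.35 ± 0.074, adjusted p = 0.0015) and a rise in SA (1.07 ± 0.063, adjusted p = 3.3e-08). CEBPG, a dimer partner of ATF4, did the same (-0.58 ± 0.045 SE in IMA and 0.39 ± 0.04 in SA). CBS, the enzyme before CTH in transsulfuration, fell in IMA (-0.18 ± 0.062, adjusted p = 0.026) and rose in SA (0.59 ± 0.038, adjusted p = 7.3e-08), but its levels of 13.2 ± 0.405 FPKM in SPA and 20.3 ± 0.787 in SA remained below the 46.2 ± 4.25 and 40.6 ± 2.1 of the intramuscular groups. The call of CBS in IMA was lost when any 1 of IMPA 1, 3 and 5 or IMA 1 and 2 was left out (-0.17 to -0.15), and without a filter on low values. SLC3A2, the heavy chain of amino acid transporters, rose in SA (0.54 ± 0.029, adjusted p = 1.6e-08) and had 0.0052 in IMA (adjusted p = 0.93), whereas its light chain partner SLC7A5 fell in IMA (-0.59 ± 0.054, adjusted p = 3.2e-06) and had 0.037 in SA (adjusted p = 0.83).

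Stress-linked targets gave mixed values. DDIT3, the factor CHOP of the unfolded protein response, had -0.037 ± 0.064 (SE) in IMA (adjusted p = 0.64) and rose in SA (0.41 ± 0.072, adjusted p = 0.00046). ATF3 had 0.02 in IMA (adjusted p = 0.77) and rose in SA (0.62 ± 0.089, adjusted p = 9.9e-05), from 2.02 ± 0.311 to 3.64 ± 0.545 FPKM. PPP1R15A, which directs dephosphorylation of eIF2, rose in both (0.49 ± 0.049, adjusted p = 5.8e-06 in IMA and 0.34 ± 0.084, adjusted p = 0.0048 in SA). DDIT4, an inhibitor of mTORC1, and VEGFA, the endothelial growth factor, had signs opposite to those of the serine synthesis genes. DDIT4 rose in IMA (0.49 ± 0.12, adjusted p = 0.0032) and fell in SA (-0.35 ± 0.087, adjusted p = 0.005), and VEGFA rose in IMA (0.54 ± 0.14, adjusted p = 0.0063) and fell in SA (-0.95 ± 0.043, adjusted p = 3.3e-09), with 275 ± 13.7 FPKM in SPA and 142 ± 6.47 in SA. With its highest transcript alone the VEGFA call in IMA was lost (0.45). GPT2, the mitochondrial alanine transaminase, fell in both (-0.56 and -0.42, adjusted p = 5.4e-08 and 3.5e-06).

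Cytosolic aminoacyl-tRNA synthetases, which charge tRNAs with amino acids and include further ATF4 targets, had a called interaction for nearly the whole list. Of 20 tested, 1 rose and 16 fell in IMA against IMPA, with a median of -0.26, and 13 rose and 3 fell in SA against SPA, with a median of 0.29. The interaction was called for 19 of the 20, with 17 higher and 2 lower (DARS and KARS). GARS, the glycine enzyme, had 66.5 ± 1.81 FPKM in IMPA, 58.2 ± 4.15 in IMA, 35.6 ± 0.742 in SPA and 64.9 ± 2.91 in SA, a fall of 0.19 (adjusted p = 0.0037) and a rise of 0.85 (adjusted p = 1.5e-09) on the log2 scale. AARS, the alanine enzyme, fell in IMA (-0.36 ± 0.047, adjusted p = 5.4e-05) and rose in SA (0.48 ± 0.034, adjusted p = 2e-07), and CARS, the cysteine enzyme, did likewise (-0.32 and 0.44). WARS, the tryptophan enzyme, rose in SA (0.84 ± 0.038, adjusted p = 3e-09) and had -0.039 in IMA (adjusted p = 0.64). DARS, the aspartate enzyme, went the other way, with a rise in IMA (0.27 ± 0.031, adjusted p = 2.1e-05) and a fall in SA (-0.15 ± 0.044, adjusted p = 0.013), whose call was lost when SPA 1 and SA 5 were left out together (-0.12).

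**Figure D5:**
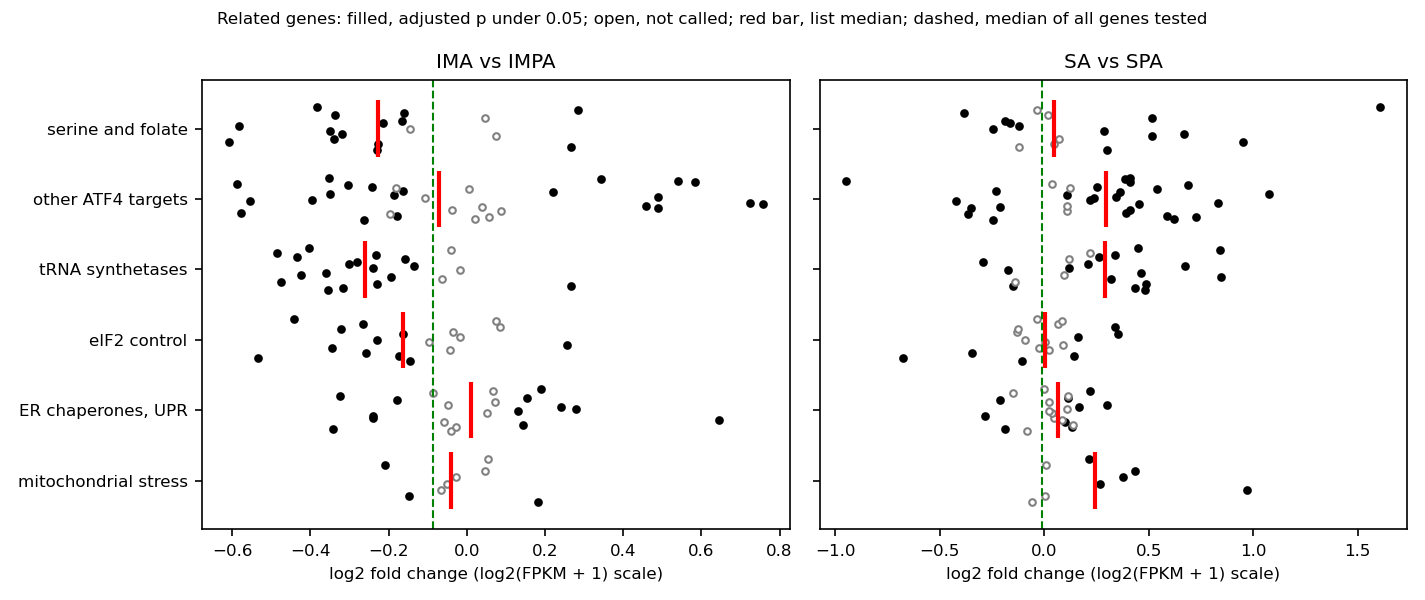
Log2 fold changes (log2(FPKM + 1) scale) of the tested genes of 6 related lists in IMA against IMPA (left) and SA against SPA (right), 1 point per gene. Filled points passed an adjusted p of 0.05 in limma over 11432 genes, red bars are list medians and the dashed line is the median of all genes tested. The tRNA synthetases lie mostly left of the dashed line at the left (median -0.26) and mostly right of it at the right (median 0.29).

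Genes that act before ATF4 made up a further list. Among the eIF2 subunits, eIF2 kinases and their regulators, 1 of 17 rose and 10 fell in IMA against IMPA (median -0.16), and 4 rose and 3 fell in SA against SPA (median 0.0017), or 2 and 7 with mRNA FPKM rescaled to a like sum in each library. EIF2AK4, the kinase GCN2 that senses uncharged tRNA, fell in IMA (-0.26 ± 0.042, adjusted p = 0.00024, a call lost with its highest transcript alone, at -0.21) and in SA (-0.34 ± 0.056, adjusted p = 0.00026). EIF2AK2, the kinase PKR, also fell in both (-0.53 ± 0.10 SE and -0.68 ± 0.053), while EIF2AK3, the kinase PERK of the endoplasmic reticulum, fell by 0.17 in IMA and rose by 0.14 in SA. EIF2S2, the beta subunit of eIF2, fell in IMA (-0.16, adjusted p = 0.0054) and rose in SA (0.35, adjusted p = 1.7e-05). RNA levels of these kinases say nothing of the phosphorylation of eIF2, which was not measured.

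Endoplasmic reticulum chaperones and unfolded protein response genes were called in both directions. Of 20 tested, 7 rose and 5 fell in IMA against IMPA (median 0.012) and 6 rose and 3 fell in SA against SPA (median 0.064). HSPA5, the chaperone BiP, rose in both (0.24 ± 0.054, adjusted p = 0.0022 in IMA and 0.17 ± 0.046, adjusted p = 0.009 in SA), from 373 ± 30.3 to 440.4 ± 18.2 and from 394 ± 16.7 to 443 ± 26.6 FPKM, although its call in IMA was lost under quantile normalization (0.083) and with its highest transcript alone (0.17). CALR, calreticulin, and PDIA3, a disulfide isomerase, fell in both (values on the log2 scale in IMA and in SA, CALR -0.34 and -0.19, PDIA3 -0.18 and -0.21). EDEM1, which takes part in the degradation of misfolded glycoproteins, also fell in both (-0.24, adjusted p = 0.002 in IMA and -0.28, adjusted p = 0.00064 in SA). DNAJB9, a cochaperone of BiP, rose in IMA (0.65 ± 0.044, adjusted p = 2.7e-07) and had 0.083 in SA (adjusted p = 0.13). Of 8 mitochondrial chaperones and proteases, 1 rose and 2 fell in IMA (median -0.039), and 5 rose and none fell in SA (median 0.24), namely HSPD1, HSPE1, HSPA9, LONP1 and YME1L1. DNAJA3, a mitochondrial cochaperone, fell in IMA (-0.15, adjusted p = 0.01), a call lost under quantile normalization (-0.096) and with its highest transcript alone (-0.16), and had 0.0039 in SA (adjusted p = 0.95). HSPA9, the mitochondrial HSP70, rose from 105 ± 3.54 to 206 ± 11.9 FPKM in the subcutaneous cells (0.97 ± 0.042, adjusted p = 2.4e-09) and had 189.5 ± 5.00 and 181 ± 5.45 FPKM in IMPA and IMA (-0.067 ± 0.032, adjusted p = 0.093).

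Between depots the related lists stood as follows. In SPA against IMPA 33 of the 112 genes were higher and 47 lower, beside 32.9% and 42.3% of all genes tested, and in SA against IMA 65 were higher and 17 lower, beside 43.4% and 29.0%. None of the 20 tRNA synthetases was higher in SPA than in IMPA and 15 were lower (median -0.28), whereas 13 of the 20 chaperones of the endoplasmic reticulum were higher in SPA and 4 lower (median 0.16). CBS had -1.73 ± 0.058, adjusted p = 3.1e-11 in SPA against IMPA and -0.96 ± 0.046, adjusted p = 1.3e-10 in SA against IMA.

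The genes whose profile over the 20 libraries lay nearest to the mean profile of the 10 were ranked by the root mean square distance between standardised log2(FPKM + 1) values, as a description. The nearest 8 were LOC102178584 (0.142), ODC1 (0.177), LOC102179758 (0.196), LOC102178870 (0.197), LOC108633413 (0.199), LOC102180034 (0.212), LOC102180587 (0.231) and MTHFD1 (0.236), where the median of all genes tested was 1.32. Of the 6 genes without a symbol, 5 carry the description of a histone H2A or H2B gene in the annotation. As histone genes have near-identical copies among which fragments can be split, their levels are uncertain. ODC1, ornithine decarboxylase of polyamine synthesis, had a mean of 108.6, 88.3, 63.0 and 106 FPKM in IMPA, IMA, SPA and SA. Of the 10 genes themselves, PHGDH lay nearest to their mean profile (0.195) and MTHFD2 (0.974), ATF4 (0.849) and SHMT2 (0.713) farthest from it.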

How the data were processed

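The authors sequenced RNA of 20 libraries, 5 each of IMPA, IMA, SPA and SA, aligned the reads to the goat genome (assembly ARS1) and deposited FPKM per transcript in a table of mRNAs, computed with StringTie and Ballgown. The submitters' processing notes list HISAT2 2.0.4, StringTie 1.3.1 and GATK 2.6-5. The deposited FPKM were summed over the transcripts of each symbol (43766 transcripts, 20587 genes) and used as log2(FPKM + 1) without further scaling. No counts were used, so FPKM do not tell how many fragments support them, and the pseudocount of 1 makes differences of low genes smaller. The 11432 genes that averaged 1 FPKM or more across all libraries entered limma 3.58.1 (R 4.3.3) with a variance trend, within the 10 libraries of a comparison and, for the interaction, over all 20, with Benjamini-Hochberg adjustment over all genes tested and a threshold of 0.05. The procedure was run on simulated libraries with independent noise and 11232 genes unchanged. It recovered 84% to 98% of changes of 0.5 on the log2 scale. Far more genes were called in the real libraries, so this run cannot show how accurate those calls are. The 10 genes and all lists of related and marker genes were chosen with earlier results of these data known, and no test was made on the 10. From each of the 6 related lists up to 4 genes with the smallest p were named in each stage comparison among those with no overlap between groups, besides DDIT3, ATF3, HSPA5, DDIT4 and SESN2, and also the 8 genes nearest to the mean profile, and 1 gene so chosen is not reported here. MTHFD2L and MTHFS of the related lists and FABP4 and MYH3 of the marker lists were not found by symbol, and ALDH1L1, GLDC, SDS, SDSL and FGF21 were under the filter. The labels do not tie replicate numbers to goats, so p values measure the spread between these libraries. Alternatives were another pseudocount (0.1), a lower filter (0.1 FPKM) or none, 3 scalings, the highest transcript per gene, 1 fit of all groups, no variance trend, a replicate block and leaving out each library. SPA 1 and SA 5 were also left out together. In the study's read statistics these lost a smaller share of raw reads in cleaning than the other subcutaneous libraries, as did the intramuscular libraries. The part of this in the depot comparisons was not tested. Promoter and protein sequences were not analysed here.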

Additional observations from a re-analysis of the deposited data

Results flagged for a closer look

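Of 216 pairs of a named gene and a group of 5 libraries, 13 had a highest or lowest library apart from the others by Dixon's criterion (a gap over 0.71 of the range), where about 1 in 20 groups, or 10.8, is flagged by chance. Among the 10 genes, MTHFD2 in IMA 3 had 36.7 FPKM with the next library at 32.2, CTH in IMA 3 had 14.4 FPKM with the next at 9.58, and ATF4 in IMPA 2 had 97.3 FPKM with the next at 103.8. Of the related genes, IMA 3 was the highest library for GART (14.4 FPKM) and EPRS (92.3 FPKM), and SPA 1 was the lowest for GPT2 (44.7) and VARS (10.1) and the highest for PDIA6 (292.6). SPA 4 was the lowest for CLPP (23.1), AARS (61.9) and HSPA9 (98.8), IMPA 4 was the lowest for HSPA9 (180.6) and SPA 2 the highest for HSPD1 (100.8), all in FPKM.

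In 6 of the 10 genes every IMA library was below every IMPA library and every SA library above every SPA library. Of all genes tested 5.31% showed this combination. The difference of the log2(FPKM + 1) differences (SA against SPA minus IMA against IMPA) was 1.57 for PHGDH, 2.01 for PSAT1, 1.95 for PSPH, 0.61 for SHMT2, 0.89 for MTHFD2 and 2.34 for CTH, and this difference was not tested, as the genes were chosen for it.

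Of 44 named related genes, 37 had a change between stages that differed between depots by the interaction in limma (adjusted p under 0.05, SA against SPA minus IMA against IMPA on the log2(FPKM + 1) scale). As most of the 44 were named for small p-values in the stage comparisons that make up the interaction, this share is no measure of the lists. In the serine and folate list the differences were MTR 0.46, GART 0.41, MTHFD1 0.99, TYMS 1.99 and SLC25A32 -0.22. In the other ATF4 targets the differences were GPT2 0.13, CEBPG 0.97, SLC7A5 0.62, VEGFA -1.49, SLC3A2 0.53, SESN2 1.42, CBS 0.77, DDIT3 0.45, ATF3 0.60 and DDIT4 -0.84. In the tRNA synthetases the differences were VARS 0.71, HARS 0.52, DARS -0.42, CARS 0.75, GARS 1.04, WARS 0.88, EPRS 0.72 and AARS 0.84. In the eIF2 list the differences were GCN1 0.19, EIF2B2 0.32, EIF2S2 0.52 and IMPACT 0.26. In the chaperones of the endoplasmic reticulum the differences were DNAJB9 -0.56, PDIA6 0.44, CALR 0.15, HSP90B1 -0.17 and SEL1L 0.15. In the mitochondrial list the differences were CLPP -0.24, HSPA9 1.03, LONP1 0.39, HSPD1 0.32 and HSPE1 0.41. The calls of GART, VARS, CALR, GCN1, SEL1L, GPT2, CLPP and HSP90B1 were lost under some of the alternatives.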

How the results depend on the processing

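Replicate numbers were not used to pair the libraries in the main fit. Same-numbered libraries correlated in their deviations from the group means by 0.042 to 0.12 in IMA against IMPA and by -0.24 to 0.12 in SA against SPA. For depots the range was -0.10 to 0.061 in SPA against IMPA and -0.18 to 0.026 in SA against IMA. In 3, 1, 2 and 0 of 5 numbers, in that order of comparisons, a library correlated best with its own number. These values cannot decide whether same-numbered libraries share a goat, as the spread between libraries can hide its part. With a replicate block 6826, 5602, 8530 and 8059 genes were called, against 6867, 5957, 8588 and 8277 without it, and 6304 against 6319 in the interaction, and of the named genes 1 call was lost with the block, that of MTR in SA against SPA (-0.12). All counts of called genes, of related genes called and of the 10 genes without overlap stayed within 1.5 times of the reported count under every alternative run. These were 5 to 9 of the 10 genes in IMA against IMPA, 8 to 9 in SA against SPA, 8 to 10 in SPA against IMPA and 3 to 6 in SA against IMA. Of 830 values of the 10 genes under alternatives, 14 turned their sign, 1 of them SHMT2 in IMA against IMPA and the other 13 in SA against IMA among PSAT1, ASNS, TRIB3 and ATF4, whose groups overlapped. A shift by more than the spread between replicates was seen in 21 values besides SHMT2, ASNS in SA against IMA with the highest transcript (-0.60) among them. With the highest transcript per gene SHMT2 in IMA against IMPA was 0.30, VARS was 0.14 there and 0.046 in SPA against IMPA, and GART in SPA against IMPA was -0.087. With quantile normalization the interaction of PDIA3 was 0.17. In SA against SPA 50.1% of called genes were higher, or 36.6% with mRNA FPKM rescaled to 1000000 per library. In the interaction 62.5% were higher, or 52.0% under quantile normalization. The causes of these shifts were not tested, and how far depth limits the low genes cannot be read from FPKM.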
